A study of Mus musculus with 28 samples.

Results

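The oligoadenylate synthetases and their relatives form a family of interferon-induced genes that lie on mouse chromosome 5. The 7 members were chosen by symbol, namely Oas1a, Oas1b, Oas1g, Oas2, Oas3, Oasl1 and Oasl2, of 18193 genes named on the arrays. Each gene was to be represented by the probe set that names it alone and has the highest mean, and 6 of the 7 genes had such a probe set. Oas1g had none. Each of the 6 measured members had exactly 1 probe set naming it alone.

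Active oligoadenylate synthetases bind double-stranded RNA and then join ATP into short 2′-5′-linked chains called 2-5A. The 2-5A chains act as a second messenger that leads to the cutting of viral and cellular RNA. The OAS-like proteins carry ubiquitin-like repeats behind the synthetase-type region, and some family members have no synthetase activity. Genes of the family are transcribed after type I interferon signals through STAT and IRF factors, and bacterial lipopolysaccharide (LPS) can start such signalling through Toll-like receptor 4 in spleen macrophages and dendritic cells.

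RNA labelled with biotin from mouse spleen was hybridised to 28 arrays, which the labels' protocols describe as splenocyte samples. The design crossed a diet supplemented with abscisic acid (ABA, a plant hormone) or a control diet, an LPS challenge or none, and 2 genotypes. Conditional PPARγ-null mice carried floxed Pparg alleles and the MMTV-Cre transgene (PPAR g flfl; MMTV-Cre+), a Cre recombinase under a mammary tumour virus promoter, and the series' design text describes the knock-out as one of epithelial and immune cells. Wild-type mice carried the same floxed alleles without Cre (PPAR g flfl; MMTV-Cre-). An experiment with wild-type mice only, called the wild-type-only experiment here, had 4 LPS arrays and 2 unchallenged arrays on each of the diets. The experiment with both genotypes had 2 arrays in each of the 8 groups of genotype, diet and LPS. The labels give no dose, time after challenge or age, and they do not state that replicate arrays stand for separate mice, so a p-value here speaks only of the spread from array to array. How many arrays there are limits how precise each value is.

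The deposited values are log2 expression levels, and the lowest value was 2.24 on every array of the experiment with both genotypes and 2.29 on every array of the wild-type-only experiment. Levels were therefore compared only within an experiment, and a level within 0.5 of the lowest value is called near the lowest. Levels of different genes were not set against each other, because probe sets differ in brightness. Over all probe sets the correlation between arrays was at least 0.942 within an experiment and 0.769 to 0.837 between experiments. The targeted gene Pparg had log2 levels of 2.45 to 3.31 on the 8 null arrays and 2.31 to 3.56 on the 8 wild-type arrays of the same experiment, and since the files do not say whether its probe set lies in the deleted part, it does not check the genotype labels. Xist was high on all 12 wild-type-only arrays and on 6 of the 16 others, and the pancreas gene Cpa1 was more than 2 above the lowest value on 4 arrays. They included replicate 2 of null mice without LPS on the ABA diet (Cpa1 at 13.5) and on the control diet (9.67). On null arrays with LPS, Cpa1 stood at the lowest value. Among wild-type LPS arrays of the experiment with both genotypes, Xist was high on both control diet arrays and on neither ABA array. It was low on both wild-type control diet arrays without LPS there. Within those wild-type arrays, diet with LPS and LPS on the control diet cannot be told apart from Xist.

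Promoter windows for 5 of the 7 members, from RefSeq on build GRCm38.p6, are shown because 3 of them hold the letters of an interferon-stimulated response element (ISRE) and the others do not. Each window runs from 250 bases before to 50 bases after the table's start base, written 5′ to 3′ on the gene's strand. The windows are chr5:120907476-120907775, chr5:120887564-120887863 and chr5:120777610-120777909 on the minus strand, and chr5:114922990-114923289 and chr5:114896684-114896983 on the plus strand. Capitals mark matches to GAAANNGAA, the ISRE letters searched here on both strands.
Oas1a: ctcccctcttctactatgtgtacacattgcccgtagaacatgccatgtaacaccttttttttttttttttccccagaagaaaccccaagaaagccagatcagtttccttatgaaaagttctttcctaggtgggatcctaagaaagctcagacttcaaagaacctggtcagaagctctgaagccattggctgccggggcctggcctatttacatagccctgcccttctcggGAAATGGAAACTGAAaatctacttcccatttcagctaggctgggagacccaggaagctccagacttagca
Oas1g: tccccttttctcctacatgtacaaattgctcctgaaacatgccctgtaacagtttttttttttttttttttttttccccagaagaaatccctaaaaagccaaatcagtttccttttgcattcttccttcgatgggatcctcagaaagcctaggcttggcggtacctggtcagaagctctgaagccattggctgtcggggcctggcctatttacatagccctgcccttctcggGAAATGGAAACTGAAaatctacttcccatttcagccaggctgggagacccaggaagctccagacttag
Oas3: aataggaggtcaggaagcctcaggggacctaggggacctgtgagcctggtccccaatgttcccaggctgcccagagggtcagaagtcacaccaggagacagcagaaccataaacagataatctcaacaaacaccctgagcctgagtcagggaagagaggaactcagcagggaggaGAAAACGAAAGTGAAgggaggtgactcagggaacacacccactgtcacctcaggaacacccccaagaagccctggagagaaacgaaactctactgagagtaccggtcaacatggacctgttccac
Oasl1: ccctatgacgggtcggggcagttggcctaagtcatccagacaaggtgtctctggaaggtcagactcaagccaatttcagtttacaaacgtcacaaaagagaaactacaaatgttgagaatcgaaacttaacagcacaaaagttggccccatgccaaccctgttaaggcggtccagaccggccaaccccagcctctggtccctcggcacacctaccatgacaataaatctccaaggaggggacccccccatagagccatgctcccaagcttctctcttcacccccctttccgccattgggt
Oasl2: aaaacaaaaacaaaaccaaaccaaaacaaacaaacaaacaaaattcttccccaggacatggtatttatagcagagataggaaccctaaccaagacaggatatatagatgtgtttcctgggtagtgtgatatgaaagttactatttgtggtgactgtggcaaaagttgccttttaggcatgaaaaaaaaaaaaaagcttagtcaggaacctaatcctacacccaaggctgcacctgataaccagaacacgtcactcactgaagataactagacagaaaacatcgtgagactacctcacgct
In Oas1a, Oas1g and Oas3 the capitals are 2 overlapping matches, both on the gene's strand. They begin 20 and 14 bases before the start in Oas1a, 18 and 12 bases before it in Oas1g, and 75 and 69 bases before it in Oas3. The windows of Oas1a and Oas1g share an unbroken run of 73 identical bases around these matches, from 58 bases before to 14 bases after the start in Oas1a. Of all 32851 promoter windows in the table, 8.56% held the letters on either strand.

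A looser pattern, the IRF half-site pair AANNGAAA, was found 2 times in Oas1a, 3 times in Oas1g, 2 times in Oas3 and 3 times in Oasl1, and 0 times in Oasl2. It stood in 23.9% of all windows, and it can overlap the ISRE letters. The GAS letters TTCNNNGAA, a pattern of STAT binding, were found 1 time, in Oas1a, and in 8.3% of all windows. A match is a description of letters and not a binding site, and windows follow the table's start, which lies 97 bases inside the outer edge of the Oasl1 gene and 0 to 25 bases inside that of the other 4. The map of pattern matches shows these positions.

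**Figure D1:**
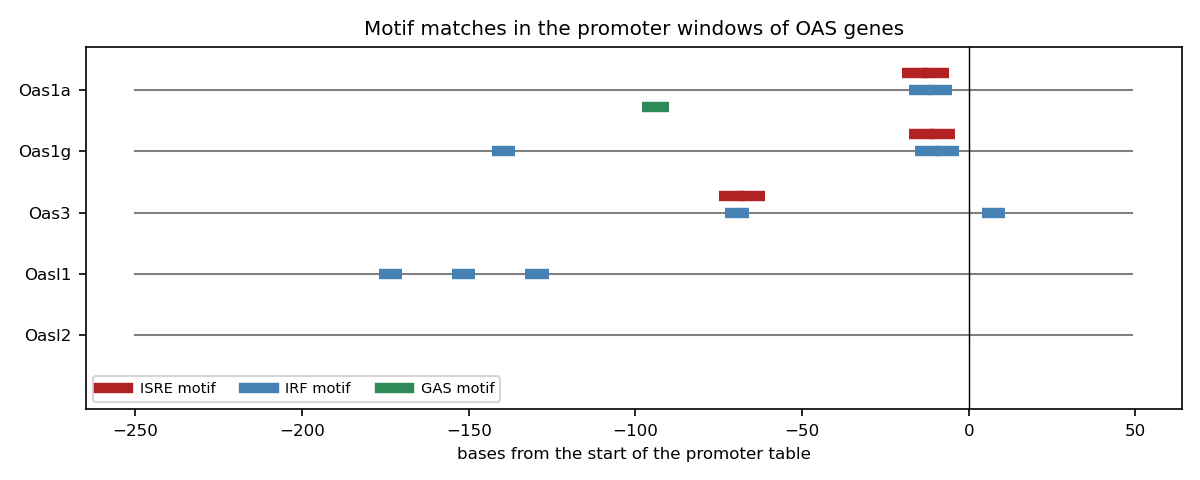
Matches to 3 sequence patterns in the promoter windows of 5 members, plotted by distance in bases from the table's start. Each mark is 1 match on either strand. ISRE matches lie within 75 bases before the start in Oas1a, Oas1g and Oas3, and no mark stands on the Oasl2 line.

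LPS raised 5 of the 6 measured members in wild-type spleen on either diet. The question of this comparison was what the challenge did to transcripts of each gene, with 20 wild-type arrays of both experiments in 1 limma model that had a term for experiment. In mice given the control diet the log2 differences between LPS and no LPS were 4.27 for Oas1a, 2.18 for Oas2, 5.16 for Oas3, 5.11 for Oasl1 and 5.39 for Oasl2, each at an adjusted p under 0.05 by limma with Benjamini-Hochberg adjustment over all genes tested. The 5 of 6 members stand against 10.6% of the 13458 genes tested that rose and 7.5% that fell. On the ABA diet the same 5 members rose, where 8.93% of genes rose and 6.33% fell. The median log2 difference over the 6 members was 3.69 for the ABA diet and 4.69 for the control diet, while the median over all genes tested was within 0.001 of 0 in both. Oas1b did not pass the test on either diet. In these bulk splenocyte samples a change in the number of cells of a type and a change in RNA per cell cannot be told apart.

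Without a model, the LPS arrays of the wild-type-only experiment lay above all arrays without LPS for 5 of 6 members, where 9.56% of genes did so. Among wild-type arrays of the experiment with both genotypes 4 of 6 members did so, against 9.41% of genes, and the exceptions there were Oas1b and Oas3. Among null arrays 5 of 6 members did so, against 6.5% of genes, and the exception was Oas1b. The plot of member levels by array shows these separations.

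**Figure D2:**
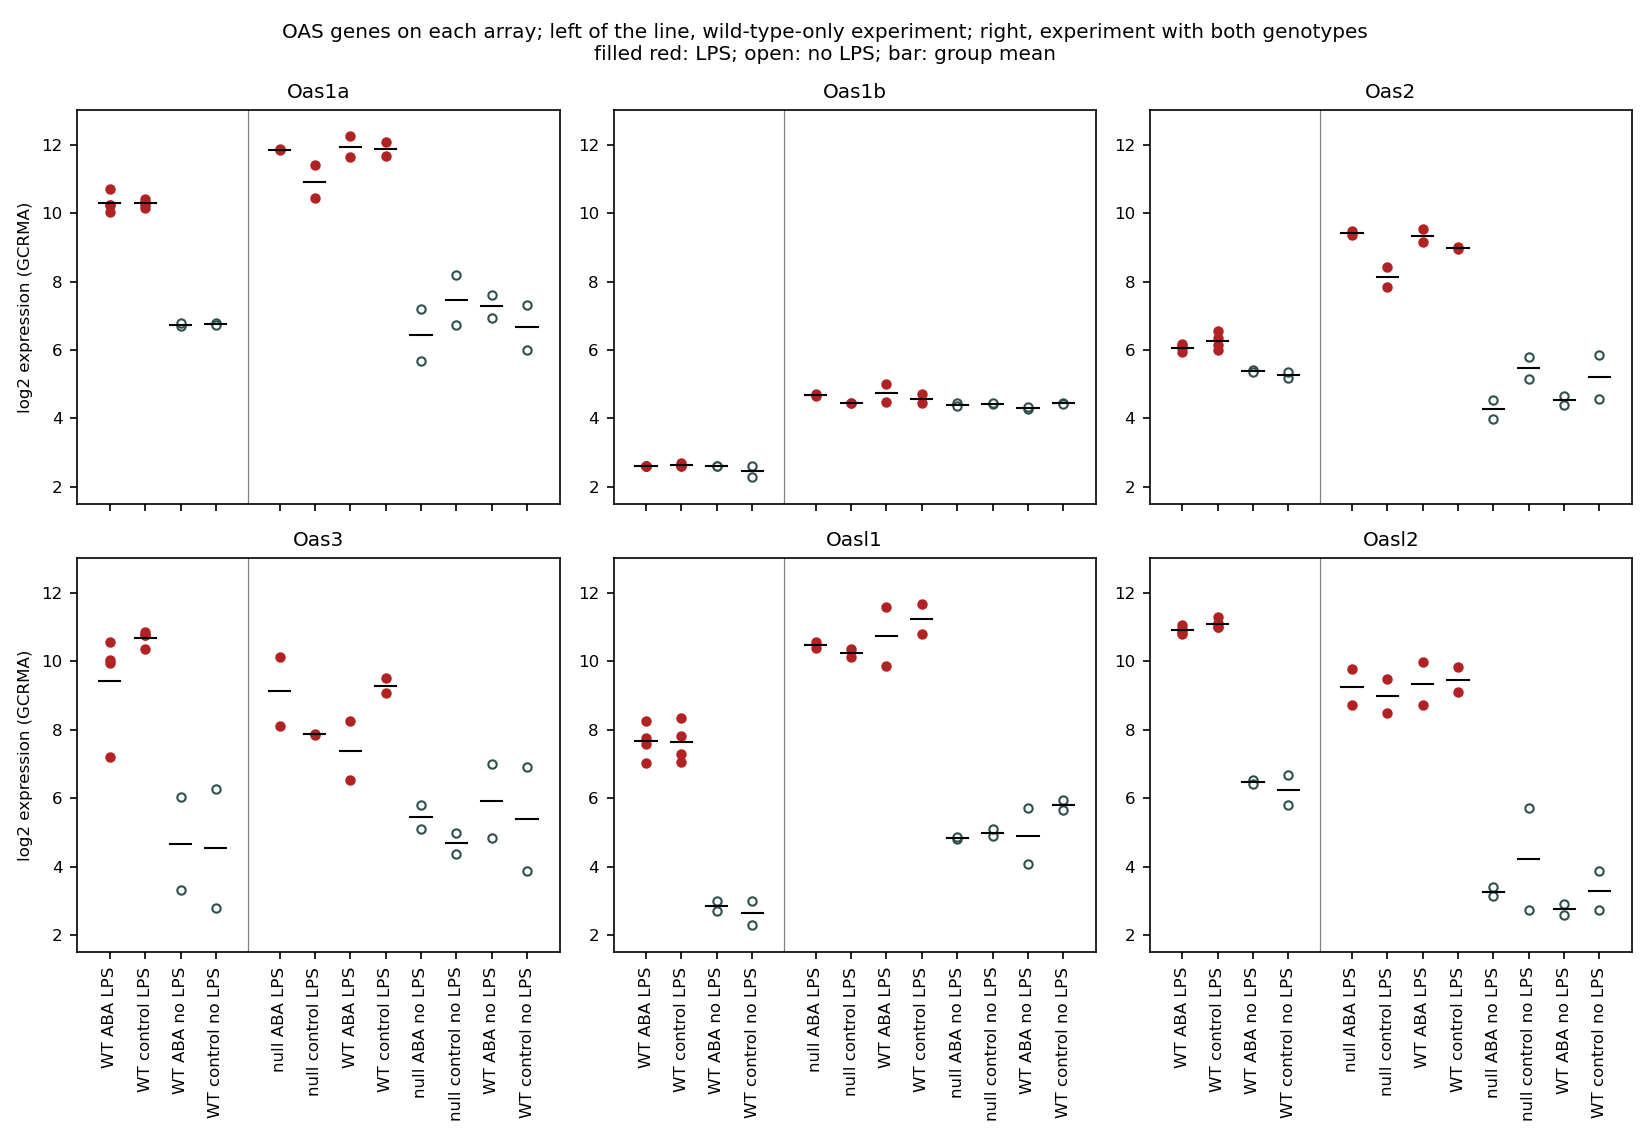
Log2 expression level of each of the 6 measured members on every array, by group, with a panel for each member. In each panel a line divides the wild-type-only experiment, left, from the experiment with both genotypes, right. Levels are not compared across the line. Points are arrays and bars are group means. LPS arrays lie above arrays without LPS for Oas1a, Oas2, Oasl1 and Oasl2 in every experiment and genotype, and Oas1b stays within a narrow band.

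Oas1a encodes an active synthetase of the OAS1 type. In the wild-type-only experiment its log2 levels with LPS were 10.24, 10.70, 10.24 and 10.02 on the ABA diet and 10.23, 10.33, 10.42 and 10.15 on the control diet. Without LPS they were 6.71 and 6.78 on the ABA diet and 6.78 and 6.73 on the control diet. The groups were separated by a wide margin, larger than the spread within any group. In wild-type mice of the experiment with both genotypes, log2 levels with LPS were 12.24 and 11.63 on the ABA diet and 11.66 and 12.08 on the control diet, and without LPS they were 7.61 and 6.93 on the ABA diet and 6.00 and 7.33 on the control diet. All LPS arrays were again above all others, and the arrays without LPS were more widely spread than in the wild-type-only experiment. The fitted log2 difference was 4.01 ± 0.33 on the ABA diet (SE, 20 arrays in the fit), a 16.1-fold higher level with limma's adjusted p = 6.18e-07, and 4.27 ± 0.33 on the control diet (19.3-fold, adjusted p = 2.45e-07). Whether this probe set also binds transcripts of Oas1g or another near copy was not tested.

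Oas2 encodes a larger synthetase with a pair of synthetase-type units. In the wild-type-only experiment its log2 levels after LPS were 6.05, 5.94, 6.12 and 6.18 on the ABA diet and 6.35, 6.00, 6.55 and 6.16 on the control diet. Without LPS they were 5.41 and 5.35 on the ABA diet and 5.18 and 5.35 on the control diet. The LPS arrays were higher without overlap, by less than in the other experiment. In wild-type mice of the other experiment, log2 levels with LPS were 9.53 and 9.15 on the ABA diet and 9.0 and 8.94 on the control diet, and without LPS they were 4.67 and 4.41 on the ABA diet and 5.85 and 4.58 on the control diet. Here every LPS array lay far above every array without LPS. The model over both experiments gave a log2 difference of 2.45 ± 0.64 on the ABA diet (SE; 5.47-fold, limma's adjusted p = 0.0158) and 2.18 ± 0.64 on the control diet (4.52-fold, adjusted p = 0.0262), values that average these unlike experiments. In the experiment with both genotypes, leaving out replicate 1 of wild-type mice on the ABA diet without LPS ended the ABA diet call (log2 difference 2.10, adjusted p = 0.0545). Leaving out any 1 of that experiment's 4 wild-type arrays on the control diet ended the control diet call (log2 difference 1.71 to 2.13, adjusted p 0.0632 to 0.0921). Both calls were also lost in a fit without the term for experiment, with adjusted p = 0.179 for the ABA diet and 0.264 for the control diet.

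Fitted within each experiment, the Oas2 log2 difference on the ABA diet was 4.80 ± 0.40 in the experiment with both genotypes (SE, limma's adjusted p = 0.000560) and 0.69 ± 0.14 in the wild-type-only experiment (adjusted p = 0.0104). On the control diet it was 3.75 ± 0.40 in the experiment with both genotypes (adjusted p = 0.00140) and 1.00 ± 0.14 in the wild-type-only one (adjusted p = 0.00164). On the wild-type control diet arrays of the experiment with both genotypes, Xist was high with LPS and low without LPS. LPS and Xist cannot be told apart there. The difference between the experiments, averaged over the diets and tested as an interaction, was 3.43 ± 0.28 on the log2 scale (95% interval 2.83 to 4.03, limma's adjusted p = 1.78e-05). It kept its call in every alternative run, with log2 differences of 3.11 to 3.75. This comparison was added after the values of Oas2 had been seen, and 4.8% of 13873 genes passed it in either direction. Of the 6 members 3 passed, all with the larger LPS difference in the experiment with both genotypes: Oas2, Oasl2 (1.74 ± 0.39, adjusted p = 0.0238) and Oas1a (1.39 ± 0.34, adjusted p = 0.0340).

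The calls for Oas1a and Oasl2 between experiments were less firm. Both calls were lost without the wild-type arrays with pancreas transcripts. These were replicate 2 with LPS and replicate 1 without LPS, on the control diet of the wild-type-only experiment. A single array then stood for that unchallenged group. The Oas1a call was also lost on leaving out any 1 of 12 single arrays (adjusted p 0.0503 to 0.0810), and the Oasl2 call on leaving out 1 of 2 (0.0584 and 0.0614), namely the unchallenged replicate 1 on the control diet in the wild-type-only experiment and replicate 2 of wild-type mice on the control diet with LPS in the other. Oasl1 differed between experiments by 0.74 ± 0.60 and Oas3 by -2.78 ± 1.32 on the log2 scale, neither past the test (adjusted p = 0.556 and 0.302). Arrays of the experiments differ in their lowest value, in Xist and in the pancreas gene. In this interaction 4 of 7 tested neutrophil markers passed with the same sign, where 4.8% of all genes passed in either direction. Marker levels were summed before the log was taken, so the brightest probe sets weigh most in a sum. Summed neutrophil markers on wild-type arrays of the experiment with both genotypes had log2 values of 15.17 to 16.13 with LPS and 12.43 to 14.60 without LPS. In the wild-type-only experiment they had 13.31 to 14.73 with LPS and 13.71 to 15.08 without LPS. The part of these in the members' differences was not tested, and anything else that differed between the experiments cannot be told apart.

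Oas3 encodes the longest synthetase of the family. On LPS arrays of the wild-type-only experiment its log2 levels were 9.94, 7.21, 10.55 and 10.03 on the ABA diet and 10.77, 10.36, 10.84 and 10.75 on the control diet. Without LPS they were 6.03 and 3.31 on the ABA diet and 6.26 and 2.80 on the control diet. All LPS arrays were above all others, but arrays of the same group without LPS lay far apart, and replicate 2 of the ABA diet with LPS was lower than the other 3. In wild-type mice of the other experiment, log2 levels with LPS were 8.24 and 6.52 on the ABA diet and 9.06 and 9.50 on the control diet, and without LPS they were 7.01 and 4.82 on the ABA diet and 6.90 and 3.88 on the control diet. Here the groups overlapped, since a wild-type array on the ABA diet with LPS lay below 2 arrays without LPS. The fitted log2 difference was 3.37 ± 0.96 on the ABA diet (SE; 10.3-fold, limma's adjusted p = 0.0264) and 5.16 ± 0.96 on the control diet (35.8-fold, adjusted p = 0.00147). Within the experiment with both genotypes it was 1.46 ± 1.11 on the ABA diet (adjusted p = 0.594) and 3.89 ± 1.11 on the control diet (adjusted p = 0.0726), neither past the test. The ABA diet call was lost on leaving out replicate 3 or 4 with LPS or replicate 1 or 2 without LPS of the wild-type-only experiment (log2 difference 2.50 to 3.55, adjusted p 0.0510 to 0.0984).

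Oasl1 encodes an OAS-like protein without synthetase activity, known in mice to hold back translation of Irf7. In the wild-type-only experiment its log2 levels with LPS were 7.57, 8.26, 7.75 and 7.03 on the ABA diet and 7.05, 7.30, 7.82 and 8.33 on the control diet. Without LPS they were 2.99 and 2.71 on the ABA diet and 2.30 and 2.99 on the control diet, and 2 of these 4 arrays were near the lowest value. Every LPS array was above every array without LPS. In wild-type mice of the other experiment, log2 levels with LPS were 9.86 and 11.58 on the ABA diet and 10.80 and 11.68 on the control diet, and without LPS they were 5.70 and 4.09 on the ABA diet and 5.64 and 5.96 on the control diet. The separation was again complete. The fitted log2 difference was 5.31 ± 0.42 on the ABA diet (SE; 39.6-fold, limma's adjusted p = 4.08e-07) and 5.11 ± 0.42 on the control diet (34.6-fold, adjusted p = 4.69e-07).

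Oasl2 encodes an OAS-like protein that in mice is an active synthetase. In the wild-type-only experiment its log2 levels after LPS were 11.05, 10.78, 10.93 and 10.86 on the ABA diet and 11.10, 10.98, 11.30 and 10.98 on the control diet. Without LPS they were 6.53 and 6.41 on the ABA diet and 6.66 and 5.81 on the control diet. The 8 LPS arrays lay close together and far above the 4 others. In wild-type mice of the other experiment, log2 levels with LPS were 9.99 and 8.70 on the ABA diet and 9.09 and 9.82 on the control diet, and without LPS they were 2.59 and 2.90 on the ABA diet and 3.86 and 2.73 on the control diet. The arrays without LPS there included 2 near the lowest value, so their levels are close to what the array can measure. The fitted log2 difference was 5.39 ± 0.40 on the ABA diet (SE; 41.9-fold, limma's adjusted p = 2.00e-07) and 5.39 ± 0.40 on the control diet (42.0-fold, adjusted p = 1.44e-07). Oas1a, Oasl1 and Oasl2 kept their LPS calls in all alternatives run.

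Oas1b is the member known in mice for resistance to flaviviruses, and RefSeq lists it as a transcribed pseudogene in the reference assembly. Its log2 levels were near the lowest value on all 12 wild-type-only arrays, from 2.29 to 2.69, and 10 of the 12 shared a value of 2.62 within 0.01. In the experiment with both genotypes its log2 levels lay between 4.27 and 5.01, and 8 of the 16 arrays shared 4.44 within 0.01. With the diets pooled, LPS and no LPS overlapped in both experiments and both genotypes. On the ABA diet of the experiment with both genotypes they did not: levels were 4.67 to 4.72 with LPS and 4.36 to 4.44 without LPS in null mice, where 23% of genes were higher without overlap, and 4.47 to 5.01 with LPS and 4.27 to 4.34 without LPS in wild-type mice, where 18.5% were. The log2 difference between LPS and no LPS in wild-type mice was 0.19 ± 0.10 on the ABA diet (SE, 95% interval -0.02 to 0.40, limma's adjusted p = 0.208) and 0.16 ± 0.10 on the control diet (adjusted p = 0.284). These values do not show that its transcript was absent or steady. On wild-type-only arrays its probe set lay so low that it could not have shown a fall.

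**Figure D3:**
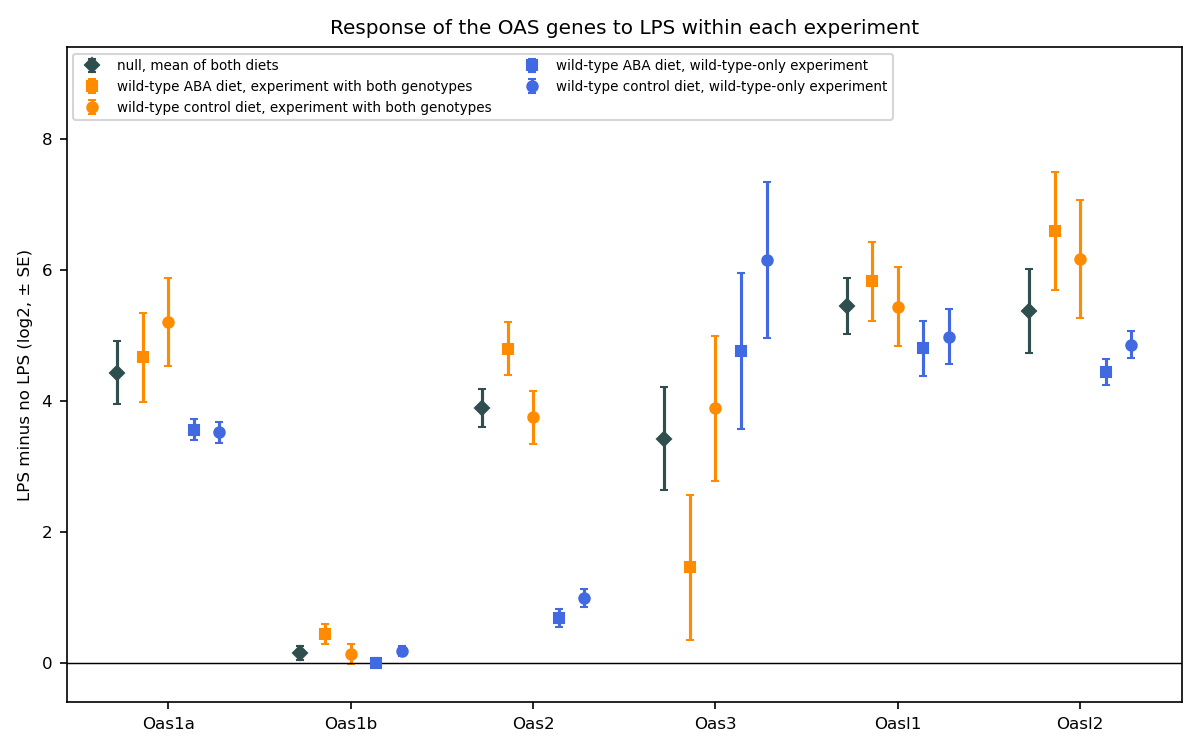
Log2 difference between LPS and no LPS for each measured member, with bars of 1 SE, in null mice (mean of both diets) and in wild-type mice on the ABA diet and on the control diet, fitted within each experiment. Oas1b lies near 0 in every group, and on the ABA diet Oas2 lies at 4.80 in wild-type mice of the experiment with both genotypes and at 0.69 in the wild-type-only experiment.

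LPS raised the same 5 members in null spleen. In the experiment with both genotypes, of 16 arrays, 3.95% of 13377 genes rose and 3.45% fell in null mice, averaged over the diets. Among null arrays, replicate 2 without LPS on each diet had high Cpa1, and no array with LPS did. Oasl1 had log2 levels of 10.57 and 10.38 on the ABA diet and 10.36 and 10.11 on the control diet with LPS. Without LPS its log2 levels in null mice were 4.80 and 4.85 on the ABA diet and 4.88 and 5.11 on the control diet. The log2 difference was 5.44 ± 0.43 (SE; 43.5-fold, limma's adjusted p = 0.000170), with arrays within each condition close together.

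Oasl2 had log2 levels of 8.71 and 9.77 on the ABA diet and 8.50 and 9.49 on the control diet in null mice with LPS, and 3.13 and 3.41 on the ABA diet and 5.70 and 2.73 on the control diet without LPS, where 1 array was near the lowest value and replicate 1 on the control diet was the highest. Its log2 difference was 5.37 ± 0.64 (adjusted p = 0.00144). Oas1a had log2 levels of 11.83 and 11.87 on the ABA diet and 10.44 and 11.40 on the control diet with LPS and 5.68 and 7.20 on the ABA diet and 8.20 and 6.72 on the control diet without LPS, a log2 difference of 4.43 ± 0.48 (adjusted p = 0.000914). For both genes every LPS array was above every array without LPS. Oas2 had log2 levels of 9.35 and 9.48 on the ABA diet and 7.83 and 8.41 on the control diet with LPS and 3.99 and 4.54 on the ABA diet and 5.80 and 5.17 on the control diet without LPS, a log2 difference of 3.89 ± 0.28 (adjusted p = 0.000118). Oas3 had log2 levels of 10.12 and 8.11 on the ABA diet and 7.86 and 7.86 on the control diet with LPS and 5.10 and 5.79 on the ABA diet and 4.38 and 4.99 on the control diet without LPS, a log2 difference of 3.43 ± 0.78 (adjusted p = 0.0321). The Oas3 call is the weakest of the 5: it was lost on leaving out any 1 of 8 single arrays (log2 difference 2.92 to 3.60, adjusted p 0.0636 to 0.118), and without a filter on low values adjusted p was 0.0580. Oas1b, with log2 levels of 4.67 and 4.72 on the ABA diet and 4.44 and 4.44 on the control diet with LPS and 4.44 and 4.36 on the ABA diet and 4.43 and 4.44 on the control diet without LPS, did not pass (0.15 ± 0.11, adjusted p = 0.456).

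No member differed between genotypes beyond the test's threshold. With LPS the null minus wild-type log2 differences, averaged over the diets, were -0.52 for Oas1a, -0.09 for Oas1b, -0.39 for Oas2, 0.16 for Oas3, -0.63 for Oasl1 and -0.29 for Oasl2, with 0 of 6 members past limma's test where 0.0299% of genes passed in either direction. The null and wild-type ranges overlapped for every member. Their 95% intervals were wide: -1.60 to 0.56 for Oas1a, -1.03 to 0.26 for Oas2 and -1.61 to 1.93 for Oas3, so differences of more than 1 log2 unit lie within them. Without LPS the log2 differences were -0.02 for Oas1a, 0.05 for Oas1b, -0.00 for Oas2, -0.59 for Oas3, -0.44 for Oasl1 and 0.72 for Oasl2, again with 0 members past the test and 0.00748% of genes. The interaction of genotype and LPS, the change of the LPS difference with genotype, was -0.50 for Oas1a, -0.14 for Oas1b, -0.38 for Oas2, 0.75 for Oas3, -0.19 for Oasl1 and -1.01 for Oasl2 on the log2 scale, with 0 members past the test and 0.0299% of genes passing. The largest of these, for Oasl2, had a 95% interval of -3.05 to 1.03.

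ABA supplementation gave no call for any member in wild-type mice. With LPS the ABA minus control diet log2 differences were 0.04 for Oas1a, 0.04 for Oas1b, -0.00 for Oas2, -1.46 for Oas3, -0.15 for Oasl1 and -0.16 for Oasl2, with 0 of 6 members past the test and 0.0149% of genes. Oas3 had the largest, -1.46 ± 0.85 (SE, 95% interval -3.27 to 0.35, limma's adjusted p = 0.948). With LPS its log2 levels in the wild-type-only experiment were 9.94, 7.21, 10.55 and 10.03 on the ABA diet and 10.77, 10.36, 10.84 and 10.75 on the control diet. In the other experiment they were 8.24 and 6.52 on the ABA diet and 9.06 and 9.50 on the control diet. The Oas3 levels of the diets overlapped in the wild-type-only experiment and not among the 2 against 2 arrays of the other, where 19.6% of genes were lower on the ABA diet without overlap. In the same 4 arrays Oas2 was higher on the ABA diet without overlap, as were 16% of genes. Xist stood at 2.25 on both of these ABA arrays and at 12.46 and 12.17 on the control diet arrays. Diet and Xist cannot be told apart in them. Without LPS the log2 differences were 0.30 for Oas1a, 0.01 for Oas1b, -0.28 for Oas2, 0.33 for Oas3, -0.35 for Oasl1 and -0.16 for Oasl2, with 0 members past the test and 0.00743% of genes. The interaction of diet and LPS in wild-type mice passed for 0 members and for 0% of genes (0 genes by limma), and its log2 value ran from -1.80 for Oas3 to 0.28 for Oas2.

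In null mice all 6 members had a positive ABA minus control diet log2 difference with LPS, and none passed the test. The differences were 0.93 for Oas1a, 0.25 for Oas1b, 1.30 for Oas2, 1.26 for Oas3, 0.24 for Oasl1 and 0.25 for Oasl2, with 0 of 6 members past the test and 0.0972% of genes. For 5 of the 6, all but Oasl2, both ABA arrays were above both control diet arrays. This was so for 25.1% of all genes. The median over the 6 members was 0.59, against 0.02 over all genes tested. Without LPS only Oas3 had a positive difference, the values being -1.02 for Oas1a, -0.04 for Oas1b, -1.22 for Oas2, 0.76 for Oas3, -0.17 for Oasl1 and -0.94 for Oasl2, with 0 members past the test and 0.179% of genes.

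Oas2 had the largest diet differences of the members in null mice, with and without LPS. With LPS its log2 levels were 9.35 and 9.48 on the ABA diet and 7.83 and 8.41 on the control diet. Without LPS they were 3.99 and 4.54 on the ABA diet and 5.80 and 5.17 on the control diet. Replicate 2 on each diet without LPS, at 4.54 and 5.17, had high Cpa1, and the null arrays with LPS did not. The ABA arrays were thus above the control diet arrays with LPS and below them without LPS, without overlap. Without LPS 17.2% of genes were lower on the ABA diet in this way. Oasl1 also lay above with LPS and below without LPS, by smaller differences of 0.24 and -0.17. Oas3 without LPS went the other way, at 5.10 to 5.79 on the ABA diet and 4.38 to 4.99 on the control diet. The share of genes higher on the ABA diet without overlap in null mice without LPS was not counted. Nor was the share of genes without overlap in both conditions. The Oas2 log2 differences were 1.30 ± 0.40 with LPS (SE, unadjusted p = 0.0106, limma's adjusted p = 0.382) and -1.22 ± 0.40 without LPS (unadjusted p = 0.0143, adjusted p = 0.486). The interaction of diet and LPS in null mice, added after these values were seen, was 2.52 ± 0.57 for Oas2 (unadjusted p = 0.00169, adjusted p = 0.120) and passed for 0 of 6 members and 0.314% of genes. The same interaction was 1.95 ± 0.96 for Oas1a (adjusted p = 0.471). The groups have 2 arrays each, and the plot of diet and genotype differences shows the width of their intervals.

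**Figure D4:**
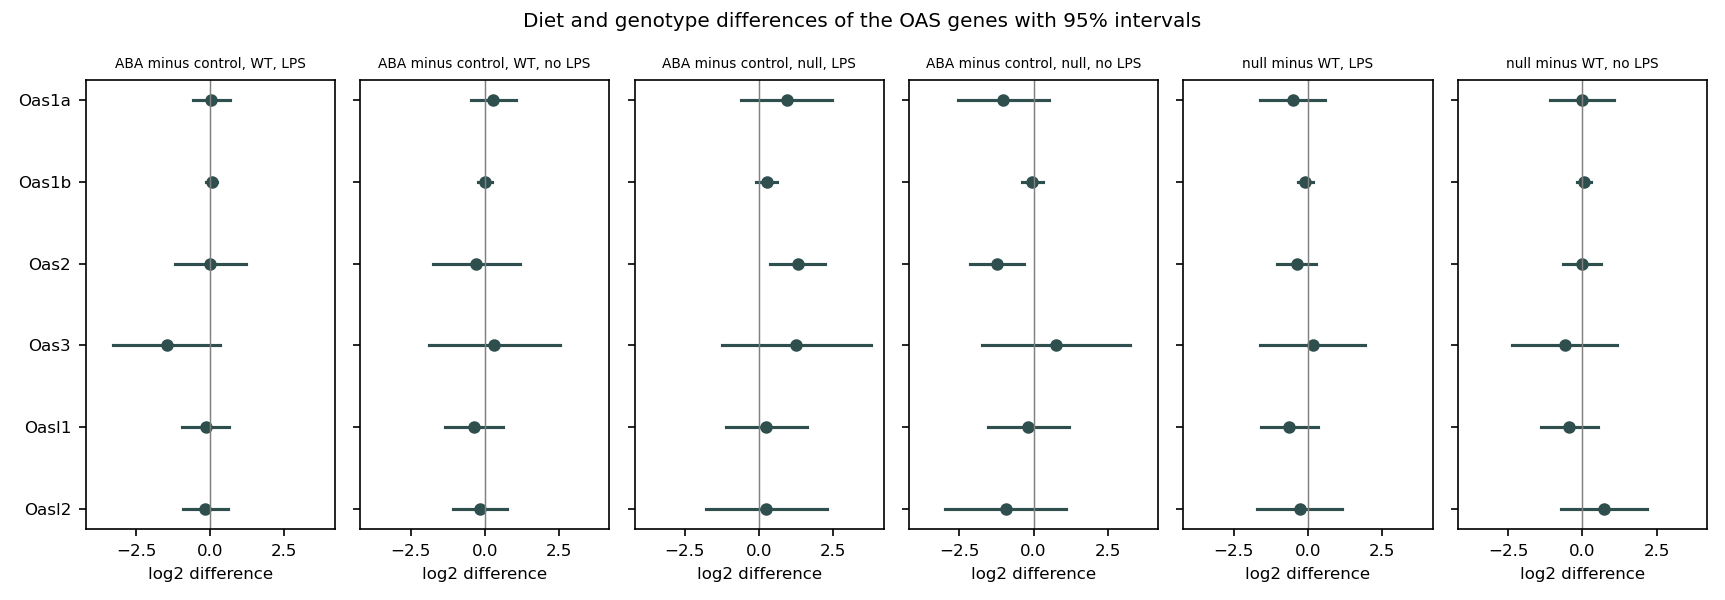
Fitted log2 differences of the 6 measured members for ABA against control diet in null and in wild-type mice and for null against wild-type mice, with and without LPS. Points are estimates and bars are 95% intervals. No point passed limma's test at an adjusted p of 0.05, and the Oas2 intervals in null mice are the ones that leave out 0.

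Genes that act on the family's product were looked at beside it. Of all genes tested, 8.93% rose with LPS in wild-type mice on the ABA diet and 10.6% on the control diet. Of 3 measured genes of 2-5A signalling and breakdown, 1 rose with LPS in wild-type mice on each diet. That gene was Abce1, an ATPase of ribosome recycling, with log2 levels of 9.32 to 10.05 with LPS and 8.09 to 8.96 without LPS in the wild-type-only experiment. In wild-type mice of the other experiment its levels overlapped, at 9.99 to 10.79 with LPS and 9.11 to 10.26 without LPS. The Abce1 log2 difference did not pass in null mice, at 0.46 ± 0.25 (SE, limma's adjusted p = 0.326). It was 0.81 ± 0.23 in wild-type mice on the ABA diet (adjusted p = 0.0273) and 1.13 ± 0.23 on the control diet (adjusted p = 0.00306). Pde12, a phosphodiesterase that degrades 2-5A, and Akap7, whose protein also has that activity in mice, had log2 differences of 0.60 ± 0.30 and -0.29 ± 0.19 on the control diet and did not pass in any LPS comparison. Of 5 further OAS1-type genes of the mouse, 4 had a probe set. Oas1f and Oas1h were near the lowest value on all 28 arrays, and Oas1c and Oas1e had log2 differences of -0.04 and -0.14 with LPS on the control diet, neither past the test.

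Of 9 other double-stranded RNA sensors and adaptors, 6 rose and 0 fell with LPS in null mice, and 7 rose and 0 fell in wild-type mice on each diet. Among all genes tested 3.95% rose in null mice, and in wild-type mice 8.93% rose on the ABA diet and 10.6% on the control diet. Zbp1, a nucleic acid sensor that can trigger cell death, rose by 5.20 ± 0.33 in null mice (SE, limma's adjusted p = 4.90e-05) and by 5.49 ± 0.34 in wild-type mice on the control diet (adjusted p = 2.32e-08), as log2 differences. Dhx58, the regulatory helicase LGP2, rose by 4.53 ± 0.36, Ifih1, the sensor MDA5, by 3.41 ± 0.33, and Ddx58, the sensor RIG-I, by 2.46 ± 0.23 on that scale in wild-type mice on the control diet. Zbp1 was also the only one of the 9 to pass the interaction of experiment and LPS, at 1.17 ± 0.30 (adjusted p = 0.0450), with the larger LPS difference in the experiment with both genotypes, as for Oas2. That interaction passed for 4.8% of all genes in either direction.

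Of 8 interferon ligands 5 had a probe set. Ifnb1, Ifna2 and Ifna4 were near the lowest value on all 28 arrays, so no direction can be given for them. Ifng, the type II interferon, had log2 levels of 2.50 to 9.44 with LPS and 2.43 to 2.47 without LPS in wild-type-only arrays, and its log2 difference was 2.55 ± 0.92 on the ABA diet, not past the test (limma's adjusted p = 0.0730), and 5.45 ± 0.92 on the control diet (adjusted p = 0.000667). Of 6 interferon receptor genes 5 were tested. On the control diet 0 of these rose and 1 fell, Ifngr1 by a log2 difference of -0.71 ± 0.18, and none passed on the ABA diet or in null mice. Of 8 measured signal transducers, 3 rose and 0 fell in null mice, Irf7, Irf1 and Irf9, and 5 rose and 0 fell in wild-type mice on each diet, these 3 with Jak2 and Stat2. Irf7, the interferon-induced IRF factor, had log2 levels of 6.71 to 7.91 with LPS and 3.52 to 4.38 without LPS in wild-type-only arrays, and log2 differences of 4.24 ± 0.31 in null mice and 4.28 ± 0.39 in wild-type mice on the control diet. Of 6 feedback inhibitors 3 rose and 0 fell in null mice. In wild-type mice 5 of them were tested, and 2 rose on the ABA diet and 3 on the control diet. Usp18, which removes ISG15 and blocks the type I receptor, had log2 differences of 4.60 ± 0.82 in null mice and 5.52 ± 0.46 in wild-type mice on the control diet. The lists were chosen with earlier results of these data known. The plot of pathway genes shows each of these differences.

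**Figure D5:**
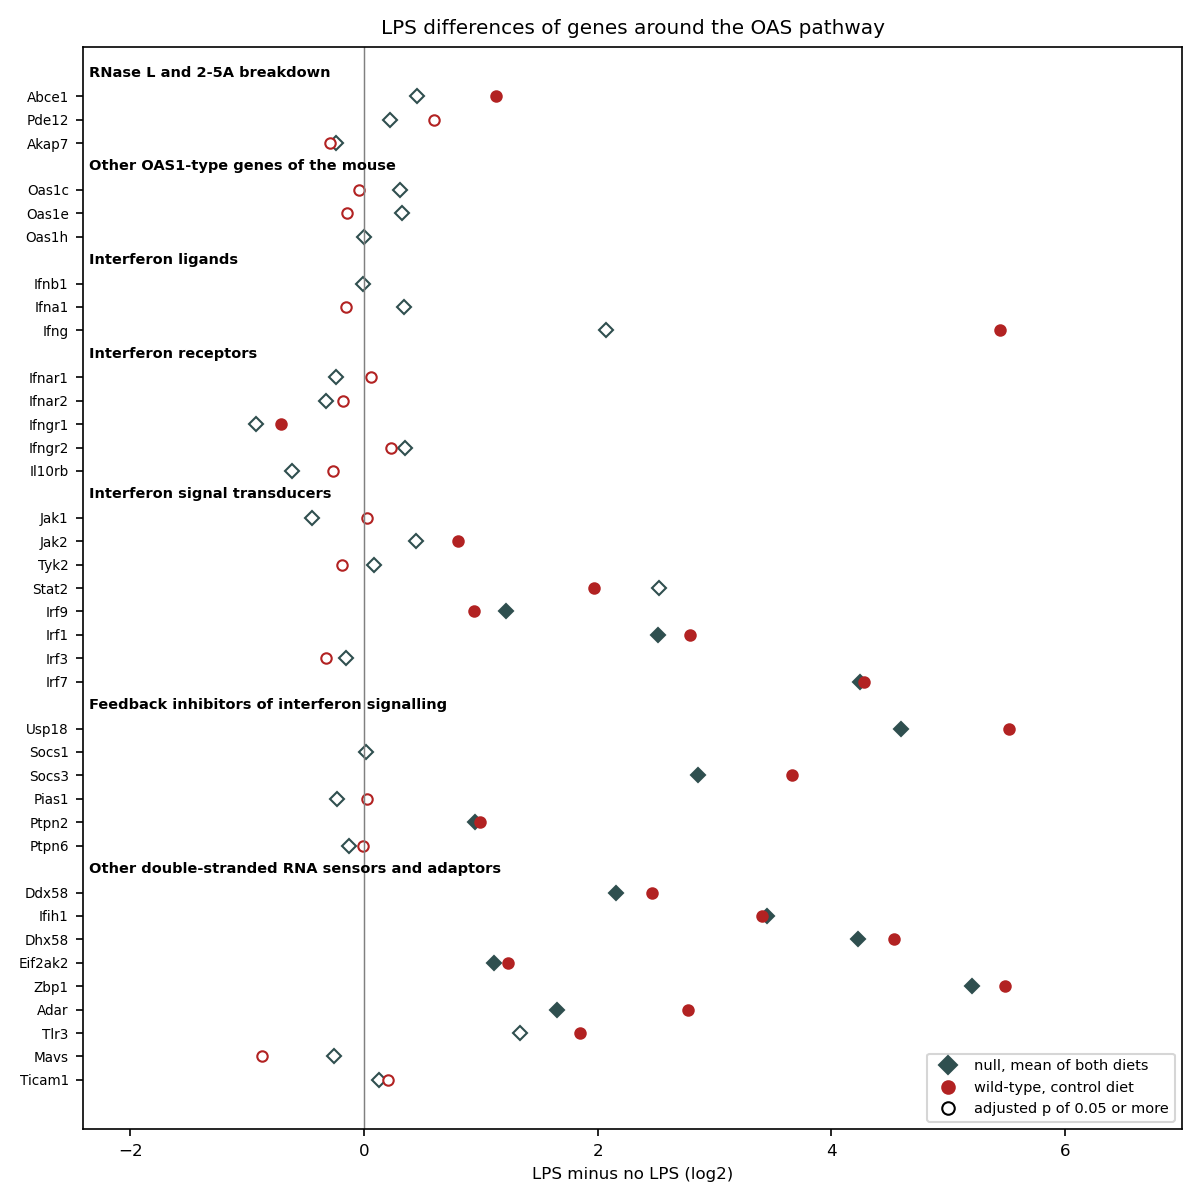
Fitted log2 difference between LPS and no LPS for genes of the lists around the family, in null mice (mean of both diets) and in wild-type mice on the control diet. Each point is 1 gene, and filled points passed limma's test at an adjusted p of 0.05. Zbp1, Dhx58, Irf7 and Usp18 lie above 4 in both, and the receptor genes lie near or below 0.

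Markers of spleen cell types moved with LPS in the same arrays. Of 8 macrophage markers 5 fell in wild-type mice on the control diet, and their summed level in the wild-type-only experiment, as log2, was 12.43 to 13.11 with LPS and 14.15 to 14.85 without LPS. In null mice 3 of the 8 fell, and the log2 sum was 13.61 to 14.33 with LPS and 14.97 to 15.95 without LPS. Of 6 measured erythroid markers 5 fell in wild-type mice on the control diet, with a log2 sum of 7.26 to 11.46 with LPS and 10.76 to 15.08 without LPS in the wild-type-only experiment. Of 4 measured natural killer cell markers 1 rose and 1 fell on the control diet, with a log2 sum in that experiment of 11.37 to 12.70 with LPS and 10.14 to 10.61 without LPS. Each sum adds unlogged levels, so the brightest probe sets weigh most in it, and it does not speak for every marker. The 5 plasmacytoid dendritic cell markers, of the cells that make most type I interferon, had overlapping log2 sums in that experiment of 9.17 to 10.13 with LPS and 8.86 to 10.01 without LPS, and 2 of the 5 fell in control diet wild-type mice. Among those mice 2 of 5 measured B cell markers and 1 of 6 T cell markers fell, and 0 of 7 neutrophil markers passed limma's test. Of the neutrophil markers 2 of 7 rose in null mice, where their log2 sum was 14.80 to 15.74 with LPS and 12.59 to 14.15 without LPS, and on the ABA diet in wild-type mice 1 rose and 1 fell. No marker of these lists was near the lowest value on all arrays. The part of these shifts in the members' differences was not tested.

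Likeness to each member over the groups was measured as the root mean square difference between 12 group means, each set centred within its experiment, over 12775 genes. Oasl1 and Oasl2 were each other's nearest members, at 0.43 log2 units, where their own root mean square over the groups was 2.68 and 2.77. The genes outside the family nearest to Oasl1 were Mx1, an antiviral GTPase (0.39), and Fcgr4, an Fc receptor (0.44). Those nearest to Oasl2 were Ifit3, an interferon-induced protein (0.34), and the GTPase gene Gbp6 (0.35). Oas1a lay nearest to Rtp4, an interferon-induced receptor chaperone (0.26), and to Phf11d (0.30), and its nearest member, Oasl1, was at 0.67. The nearest of 12775 genes is not comparable with the nearest of 5 members, so nothing is read from that. Oas2 lay nearest to the chemokine gene Ccl12 (0.37) and the transporter gene Slc15a3 (0.39), and its nearest member, Oas1a, was at 0.87. Oas3 had no gene as close, with Car13, a carbonic anhydrase, at 0.52 and Tnfrsf9, a costimulatory receptor, at 0.59. Oas1b, whose own value was 0.12, lay nearest to Camsap1 (0.06) and Uaca (0.07), at a distance near its own small variation.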

How the data were processed

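Expression was measured on 28 single-colour arrays of mouse spleen RNA, 45101 probe sets each. The authors deposited log2 expression values, and GCRMA and limma are named, with no version or role, in the submitters' processing notes. The log2 scale was read from the range of the values and their shared lowest value, at which 35.9% to 37.5% of probe sets stood per array in the experiment with both genotypes and 40.1% to 41.9% in the wild-type-only experiment. These floors differ, so the experiments were taken as normalised separately. Scanner files were not used here.

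Gene names came from the platform annotation in GEO. Of the probe sets, 34945 had a single gene and were used, while 932 with several genes and 9224 without any were left out. Genes above the 40th percentile on at least the number of arrays in the smallest condition were tested with limma 3.58.1 (R 4.3.3), with Benjamini-Hochberg adjustment over all genes tested at 0.05 and, in the wild-type model, a term for experiment. Diet and LPS in wild-type mice used 20 arrays, null mice and genotype 16 arrays, and the interaction of experiment and LPS 20 arrays in 8 groups. The limma step was tested on simulated data. Figures and tables were made with Python 3.11.15, pandas 2.3.3 and matplotlib 3.10.9. Identical values were found in 0 pairs of arrays.

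The members and lists were chosen with earlier results of these data known. Named genes are all members, Pparg, of each list up to 4 genes with the smallest p for LPS in wild-type mice on the control diet, and per member the 2 nearest genes. Other names, such as Stat2, Cpa1, Xist, Ifnb1 and Oas1f, were added after their values were seen. Some genes of the lists are not reported here. Alternatives changed the probe set, filter, scaling, weights, variance model, replicate block, arrays and covariates.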

Additional observations from a re-analysis of the deposited data

Results flagged for a closer look

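Of the 6 measured members, 3 differed between the experiments in their LPS difference, by the test of that difference itself in wild-type mice averaged over the diets. Of all 13873 genes tested, 4.8% passed in either direction. The test was added after the values of Oas2 had been seen, and the Oas1a and Oasl2 calls were lost in some alternatives. The log2 LPS difference was larger in the experiment with both genotypes than in the wild-type-only experiment by 3.43 for Oas2, by 1.74 for Oasl2 and by 1.39 for Oas1a. The experiments differ in their lowest value and in Xist, and 4 of 7 tested neutrophil markers passed the same interaction. These cannot be told apart from the experiment.

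In the wild-type-only experiment, Oas1b in LPS-challenged mice on the control diet had its highest array at 2.69 while the other 3 lay between 2.62 and 2.63. That array stood apart from the rest of its group by Dixon's criterion at log2 levels near the lowest value. Chance flags about 1 in 20 groups, and 12 sets of 4 arrays were looked at. The Oas1b set with LPS on the ABA diet had no spread and gave no ratio. For Oas1b, whose levels there were mostly 1 repeated value, the rate of 1 in 20 may not hold.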

How the results depend on the processing

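The members called for LPS numbered 4 to 5 of 6 in null mice and in wild-type mice on the ABA diet, and 4 to 6 in wild-type mice on the control diet, under every alternative, and 0 under every alternative for diet in wild-type mice, diet in null mice and genotype, with their interactions with LPS. No member's called difference changed sign. The 3 members called for experiment and LPS fell to 1 with the replicate block and to 1 without the arrays with pancreas transcripts, and numbered 1 to 3 on leaving out single arrays, where a lone array of a group is assumed to vary like the others. Whether same-numbered arrays pair is not settled. Their deviations correlated over 0.1 in 4 of 14 pairs of the wild-type-only experiment and 20 of 56 of the other. The correlations ran from -0.17 to 0.39 and from -0.70 to 0.51. In groups of 2 arrays the deviations mirror each other, so a correlation is counted under each replicate number. Results with the replicate block are therefore given here only. With the replicate block, Oas2 on the control diet had a log2 difference of 2.38 (limma's adjusted p = 0.0502), Oas1a between experiments 1.31 (0.167) and Oasl2 1.76 (0.0888). Oas2 on the control diet also lost its call with a term for high Xist (2.02, adjusted p = 0.0942) and with the probe set of lowest mean standing for each gene (0.0510), and on the ABA diet with array weights (1.79, 0.0852). Oasl2 lost its call between experiments with array weights (1.71, 0.119). Oas3 lost its call on the ABA diet with the probe set of lowest mean (0.0525) and in null mice with it (0.0634), with a term for high Xist (3.37, 0.0589) and without the pancreas arrays (log2 difference 3.75). Each measured member has 1 probe set, so the setting of lowest mean left its log2 difference unchanged. Only the values of other genes in the fit and adjustment changed there. With array weights Oas1b passed on the control diet (0.21, adjusted p = 0.0361). The cause of the other changes was not tested.

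The numbers of all genes called moved more. Against 2437 for LPS in wild-type mice on the control diet they ran from 585 to 3529, against 2054 on the ABA diet from 439 to 2388, against 990 in null mice from 449 to 1509, and against 666 for experiment and LPS from 359 to 2112. Against 42 for diet and LPS in null mice they ran from 5 to 361. The other comparisons had 0 to 24 genes called and reached 37 to 392 under some alternative. The share of called genes that rose with LPS on the control diet was 58.6%, with 48.5% after quantile normalisation, and on the ABA diet 58.5%, with 47.5% after median centring. Median centring moved the median of all genes to -0.18 for diet in null mice with LPS and to -0.15 for diet and LPS in null mice. In null mice it was 53.3%, with 63.6% after median centring, which moved the median of all genes to 0.10. Between experiments it was 58.0%, with 75.5% after median centring, which moved that median to 0.11. Levels near the lowest value limit Oas1b in the wild-type-only experiment and, on some arrays without LPS, Oasl1 in that experiment and Oasl2 in the other.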
